A study of Mus musculus with 28 samples.

Results

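The genes described here are 10 markers of the cells that wrap and brace the kidney's blood vessels: vascular smooth muscle, pericytes and the mesangial cells of the glomerulus. They were chosen by gene symbol, and all 10 were found among the 14845 genes of the deposited table and passed the filter on low values. They are Acta2, Tagln, Myh11, Cnn1 and Des of the contractile and filament apparatus, Pdgfrb, Mcam and Itga8 of the cell surface, the secreted Mgp and the intracellular signalling regulator Rgs5.

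Vascular smooth muscle cells set the calibre of renal arteries and arterioles by contraction, which actin, smooth muscle myosin and their regulators carry out. Pericytes lie along the peritubular capillaries, and mesangial cells hold the glomerular capillary loops together; both depend on platelet-derived growth factor signals from the endothelium through the receptor encoded by Pdgfrb. In scarring kidneys, pericytes and fibroblasts can become myofibroblasts that make smooth muscle actin and matrix, so several of these genes are read as markers both of vessel walls and of fibrosis.

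RNA of whole kidneys from male mice was sequenced in bulk to study diabetic kidney disease in a severe form. The db/db Unx groups held 12 libraries at 26 weeks and 5 at 35 weeks of age, from db/db mice, which lack a working long leptin receptor and are obese and diabetic, after removal of 1 kidney (uninephrectomy, Unx). The db/m groups held 5 libraries at 26 weeks and 6 at 35 weeks, from mice labelled db/m and intact. Every db/db mouse was uninephrectomized and every db/m mouse was not, so genotype and surgery cannot be told apart, and their joint contrast is called the disease comparison. The labels do not say that each library is a separate animal, so p-values measure the spread between these libraries, which may be technical, and no batch is labelled.

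Estimated depth lay between 21.7 and 30.8 M counts per library (M, mega). Values are the authors' scaled signal per gene, given as mean ± SD over the libraries of a group. Changes are log2 differences of value + 1 with their standard errors, and a gene was called at a Benjamini-Hochberg adjusted p below 0.05 from limma over 13495 genes. On the second principal component of all genes, replicates 3, 5 and 6 of db/db Unx at 35 weeks stood apart from the rest, 3 of 5 libraries of that group, and the 35-week calls are also given without them where the call changes. In bulk kidney RNA, fewer cells of a type and less RNA per cell cannot be told apart.

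Levels of different genes were compared as the deposited value per kilobase of merged exon. Mgp was the most abundant of the 10 in each of the 4 groups, at 54.6 ± 8.82 per kilobase in db/db Unx (SD, n = 12) and 54.3 ± 6.02 in db/m (n = 5) at 26 weeks, and at 81.2 ± 15.2 in db/db Unx (n = 5) and 39.5 ± 8.17 in db/m (n = 6) at 35 weeks. Its lowest library lay above the highest library of the next gene, Acta2, in every group. Acta2 came second with 9.91 ± 1.95 per kilobase in db/db Unx and 6.38 ± 1.84 in db/m at 26 weeks, and Tagln followed, with a range that overlapped that of Acta2 in all 4 groups. Rgs5, Pdgfrb, Des and Mcam followed. Myh11, Itga8 and Cnn1 filled the last places, each at an average of at most 1.27 per kilobase, below the all-gene median of 3.77 to 4.09. Pdgfrb, Des and Mcam also averaged below their group's all-gene median in all 4 groups. Rgs5 averaged below it in both db/m groups and not in db/db Unx. The order of Rgs5 and Pdgfrb differed between the groups: Rgs5 averaged 4.08 per kilobase against 3.30 for Pdgfrb in db/db Unx at 26 weeks, and 2.53 against 3.75 in db/m of that age, with overlapping ranges in each case.

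**Figure D1:**
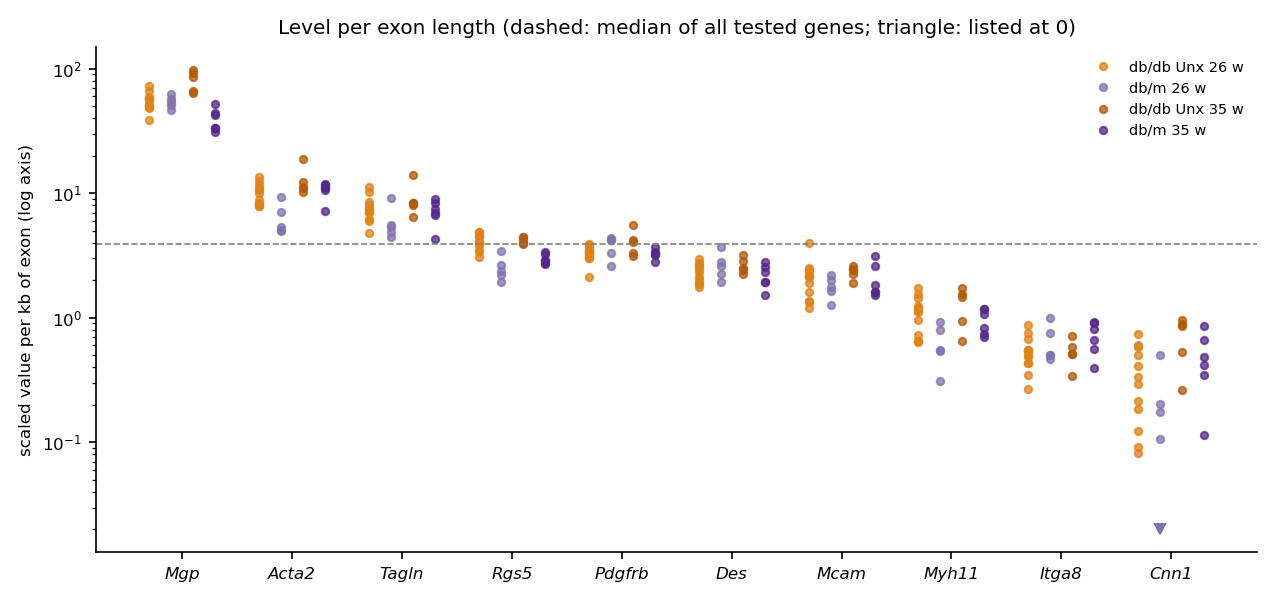
Deposited value per kilobase of merged exon (log axis) for the 10 genes in each group, with db/db Unx beside db/m at each age; points are libraries. Mgp lies above the other 9 genes in every group, and the dashed line is the median of all tested genes.

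At 26 weeks, 3 of the 10 genes rose in db/db Unx kidneys and none fell by limma: Rgs5, Acta2 and Myh11. Of all tested genes 17.2% were called higher, 17.7% lower and 34.9% in either direction, so 3 called of 10 is no larger a share than over all genes. Without adjustment 4 genes had p under 0.05, and the groups of none of the 10 were free of overlap, against 12.8% of all genes. The median change of the 10 was 0.25, against 0.020 for all genes. At 35 weeks 2 of 10 rose, Mgp and Rgs5, and none fell, where 15.9% of all genes were called higher, 16.4% lower and 32.3% in either direction. The same 2 genes were the ones whose groups did not overlap, where 7.84% of all genes were higher without overlap. The median change of the 10 was 0.29, against 0.012 for all genes.

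**Figure D2:**
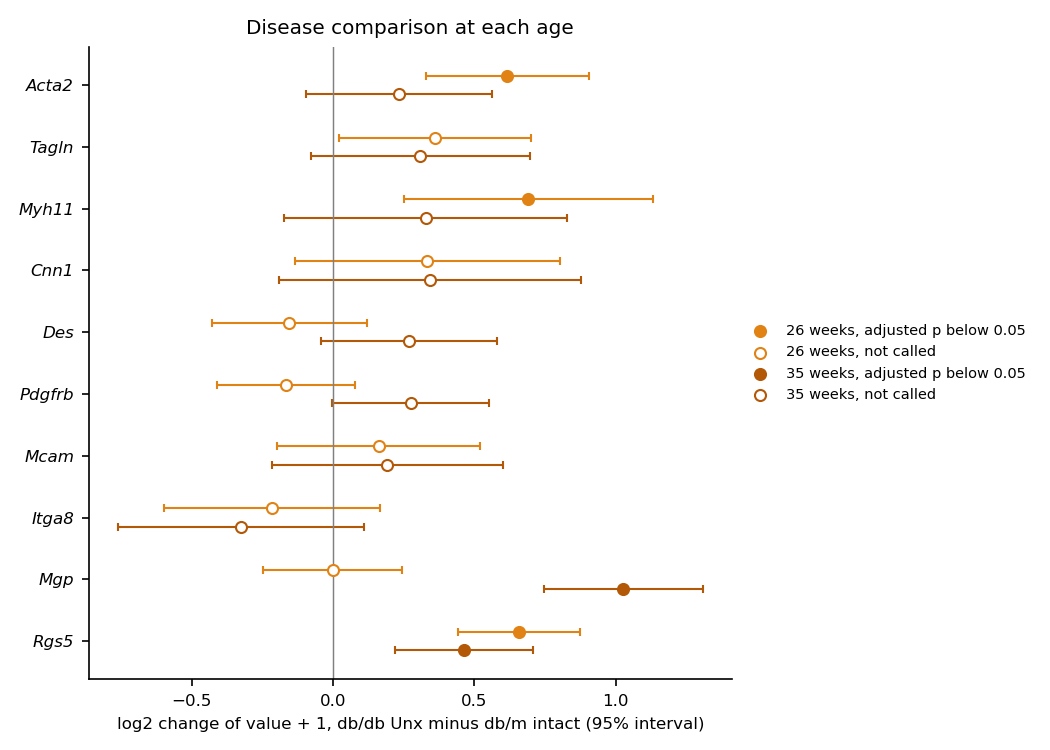
Log2 change of value + 1 of each gene in db/db Unx minus db/m, with 95% intervals from limma; the upper point of each pair is 26 weeks, the lower 35 weeks, and filled points had an adjusted p below 0.05. Rgs5 is filled at both ages, Acta2 and Myh11 at 26 weeks, and Mgp at 35 weeks.

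Acta2 (ENSMUSG00000035783, GRCm38 chr19:34241090-34255590, minus strand) encodes smooth muscle alpha-actin, the thin filament of contracting smooth muscle and a mark of myofibroblasts. In db/db Unx kidneys of 26 weeks its value lay between 17.2 and 29.8 with a median of 20.9. The 5 db/m libraries of that age had 15.6, 11.8, 11.0, 20.4 and 11.2. The groups overlapped through db/m replicate 4 at 20.4; the other 4 db/m libraries lay below every db/db Unx library. The medians were 20.9 in db/db Unx (n = 12) and 11.8 in db/m (n = 5), with SDs of 4.28 in db/db Unx and 4.05 in db/m, and Acta2 rose by 0.62 ± 0.14 (adjusted p 0.000749). At 35 weeks the 5 db/db Unx libraries had 24.8, 22.7, 24.2, 41.0 and 27.3. The 6 db/m libraries lay between 15.9 and 26.1 with a median of 24.6. Replicate 5 of db/db Unx, at 41.0, stood well above the other 4, which lay within or just above the range of the db/m libraries, and the difference was not called, at 0.23 ± 0.16 (95% interval -0.095 to 0.56, adjusted p 0.293), and 0.093 without replicate 5 (adjusted p 0.721). The change at 35 weeks minus that at 26 weeks was -0.38 ± 0.22 (adjusted p 0.471). Between ages, Acta2 rose in db/m kidneys, to a median of 24.6 at 35 weeks (n = 6) against 11.8 at 26 weeks (n = 5), by 0.72 ± 0.16 (adjusted p 0.00428). In db/db Unx the change between ages was 0.34 ± 0.14 and was not called (adjusted p 0.121). Other actin genes have near-identical coding sequence, so the sharing of reads among them is uncertain.

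**Figure D3:**
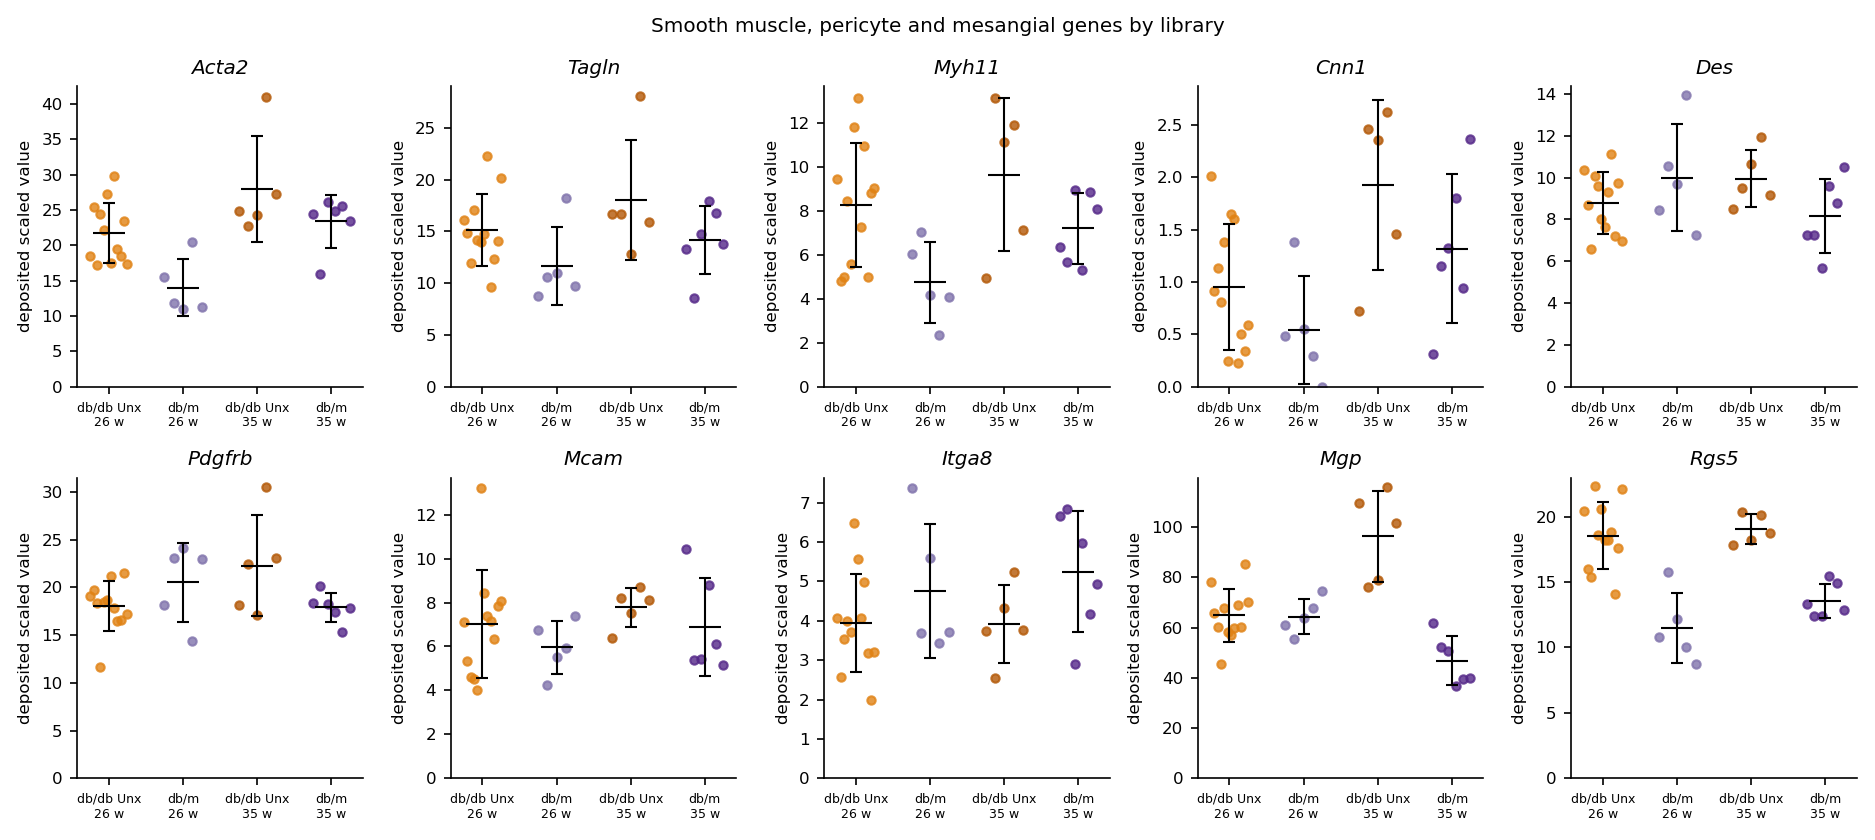
Deposited value of each of the 10 genes in every library, in db/db Unx and db/m kidneys at 26 and 35 weeks; points are libraries and lines are group means with SD. At 35 weeks all 5 db/db Unx libraries lie above all 6 db/m libraries for Mgp and Rgs5, while the groups overlap for the other 8 genes.

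The promoters of Acta2 and Rgs5, both higher in db/db Unx kidneys at 26 weeks, are shown because serum response factor binds smooth muscle promoters at the CArG box, a motif of CC, a run of A or T bases, and GG. The 250 bases before the RefSeq start (GRCm38.p6) are given 5′ to 3′ on the gene's strand. They lie at chr19:34255374-34255623 (minus strand) for Acta2 and chr1:169655251-169655500 (plus strand) for Rgs5. The annotated Acta2 gene given above begins, on the minus strand, at 34255590, which lies within these bases. Positions therefore count from the RefSeq start used here, which differs from the start of the annotated gene. Capitals mark CArG-like matches, in which 1 of the middle bases may be G or C, and the MCAT motif CATTCC; both were searched on both strands, and they do not overlap here.
Acta2: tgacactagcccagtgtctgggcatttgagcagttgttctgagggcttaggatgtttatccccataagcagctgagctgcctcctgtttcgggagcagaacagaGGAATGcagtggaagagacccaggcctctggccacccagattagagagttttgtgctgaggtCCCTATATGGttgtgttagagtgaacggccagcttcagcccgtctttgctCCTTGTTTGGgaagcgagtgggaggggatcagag
Rgs5: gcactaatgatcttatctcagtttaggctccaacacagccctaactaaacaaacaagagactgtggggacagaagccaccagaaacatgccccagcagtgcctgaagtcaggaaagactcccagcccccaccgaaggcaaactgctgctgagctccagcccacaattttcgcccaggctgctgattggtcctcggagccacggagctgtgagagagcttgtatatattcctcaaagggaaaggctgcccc
A promoter window of 300 bases was at hand for 6 of the 10 genes. Tagln, Myh11, Pdgfrb and Mgp had none and were not searched, so nothing is said of their promoters. Of the 6 searched, none held a strict CArG box and Acta2 alone held CArG-like matches. These lay at -84 to -75 and -34 to -25 from the RefSeq start. The Acta2 window also held MCAT at -146 to -141. Among 32851 mouse windows of that length, 1.63% held a strict CArG box, 9.98% a CArG-like match and 14.7% MCAT. Rgs5 held none of these in its window. A match is a description of the sequence and shows no binding.

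Tagln (ENSMUSG00000032085, chr9:45929619-45936058) encodes transgelin, an actin-binding protein of smooth muscle. At 26 weeks it averaged 15.1 ± 3.48 in db/db Unx (n = 12) and 11.7 ± 3.76 in db/m (n = 5), a change of 0.36 ± 0.17 that was not called (adjusted p 0.0937). One db/m library, replicate 4, had 18.2 where the other 4 had at most 11.0; without it the change was 0.52 (adjusted p 0.0154), and without db/db Unx replicate 9 it was 0.41 (adjusted p 0.0444). At 35 weeks the db/db Unx libraries had 16.6, 16.7, 12.8, 28.02 and 15.9, and the db/m libraries lay between 8.57 and 17.96 with a median of 14.3. Again db/db Unx replicate 5 was the highest, and the difference of 0.31 ± 0.19 was not called (adjusted p 0.230); without that library it was 0.14 (adjusted p 0.626). Exons of Tagln share 1241 bases with the antisense gene Gm48529 and 108 with the protein-coding gene Pcsk7, both on the other strand. Of these, Pcsk7 is in the deposited table and Gm48529 is not. Exons of Itga8, Des and Mcam share 372, 220 and 17 bases with antisense genes. Strandedness of the libraries is not given in the sources used here.

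Myh11 (ENSMUSG00000018830, chr16:14194535-14291372) encodes the smooth muscle myosin heavy chain, the motor of contraction. In db/db Unx kidneys of 26 weeks it lay between 4.83 and 13.1 with a median of 8.64. The 5 db/m libraries had 6.06, 7.06, 4.19, 2.35 and 4.08. All 12 db/db Unx libraries lay above the db/m mean, though the ranges overlapped. The means were 8.27 ± 2.82 in db/db Unx (n = 12) and 4.75 ± 1.84 in db/m (n = 5), a rise of 0.69 ± 0.22 (adjusted p 0.0121). The call was lost without db/m replicate 4, the lowest, at 0.51 (adjusted p 0.0795), and under 1 other setting given in the closing section. At 35 weeks Myh11 averaged 9.65 ± 3.47 in db/db Unx (n = 5) and 7.21 ± 1.62 in db/m (n = 6), with a change of 0.33 ± 0.25 (adjusted p 0.338).

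Cnn1 (ENSMUSG00000001349, chr9:22099216-22109630), which encodes calponin, a brake on actomyosin in smooth muscle, was the faintest contractile gene. At 26 weeks it lay between 0.226 and 2.01 in db/db Unx, and the 5 db/m libraries had 0.483, 1.39, 0.554, 0.293 and 0, the last being listed at 0. At 35 weeks it averaged 1.92 ± 0.81 in db/db Unx (n = 5) and 1.32 ± 0.71 in db/m (n = 6). The disease changes were 0.33 ± 0.23 at 26 weeks (adjusted p 0.279) and 0.34 ± 0.26 at 35 weeks (adjusted p 0.350). In db/db Unx, 35 minus 26 weeks gave 0.60 ± 0.23 (adjusted p 0.0899), which became 0.77 (adjusted p 0.0314) without replicate 1 of 35 weeks. These values are near the floor, and the estimates depend on the pseudocount: with 0.1 in place of 1, the disease change was 0.91 at 26 weeks and 0.58 at 35 weeks. With 0.1, 35 minus 26 weeks gave 1.07 in db/db Unx and 1.41 in db/m, where a pseudocount of 1 gave 0.59 in db/m. None of these was called (adjusted p from 0.133 to 0.483 with 0.1).

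Des (ENSMUSG00000026208, chr1:75360329-75368579) encodes desmin, the intermediate filament of muscle, made in the kidney by mesangial cells and by injured podocytes. It averaged 8.77 ± 1.47 in db/db Unx (n = 12) and 9.98 ± 2.55 in db/m (n = 5) at 26 weeks, a change of -0.15 ± 0.14 (adjusted p 0.406). At 35 weeks the averages were 9.94 ± 1.36 in db/db Unx (n = 5) and 8.17 ± 1.77 in db/m (n = 6), a change of 0.27 ± 0.15 (adjusted p 0.192). The interval of the change reached from -0.43 to 0.12 at 26 weeks and from -0.043 to 0.58 at 35 weeks. Of 10 podocyte markers, 5 rose and 1 fell at 26 weeks and 4 rose and 1 fell at 35 weeks (1 and 1 without the 3 libraries). Over all genes, 34.9% were called at 26 weeks, 32.3% at 35 weeks and 17.9% without the 3. The podocyte sum ran from 222.5 to 271.5 in db/db Unx and from 210.5 to 233.7 in db/m at 26 weeks. At 35 weeks it ran from 234.7 to 342.3 in db/db Unx and from 222.8 to 259.6 in db/m. A podocyte part in Des was not tested.

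Among the surface proteins, none was called in either disease comparison. Pdgfrb (ENSMUSG00000024620, chr18:61045150-61085061), the receptor for platelet-derived growth factor that pericytes and mesangial cells need to form, averaged 18.1 ± 2.59 in db/db Unx (n = 12) and 20.5 ± 4.15 in db/m (n = 5) at 26 weeks, a change of -0.17 ± 0.12 (adjusted p 0.301). At 35 weeks it averaged 22.3 ± 5.30 in db/db Unx (n = 5) and 17.9 ± 1.56 in db/m (n = 6), a change of 0.28 ± 0.14 (adjusted p 0.126). The db/db Unx values at 35 weeks were 18.2, 22.4, 17.1, 30.6 and 23.0, with replicate 5 again the highest, and without it the change was 0.16 (adjusted p 0.435). Mcam (ENSMUSG00000032135, chr9:44134469-44142727), an adhesion molecule of pericytes, smooth muscle and endothelium, changed by 0.16 ± 0.18 at 26 weeks (adjusted p 0.514) and 0.19 ± 0.20 at 35 weeks (adjusted p 0.511). Itga8 (ENSMUSG00000026768, chr2:12106632-12301922), the integrin alpha 8 chain of mesangial cells, needed for kidney development in the mouse, was the only gene with a negative estimate at both ages, at -0.22 ± 0.19 (adjusted p 0.402) and -0.33 ± 0.21 (adjusted p 0.266). Itga8 averaged 3.94 ± 1.25 in db/db Unx and 4.76 ± 1.70 in db/m at 26 weeks, and 3.92 ± 0.98 in db/db Unx and 5.24 ± 1.54 in db/m at 35 weeks.

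Mgp (ENSMUSG00000030218, chr6:136872435-136875823) encodes matrix Gla protein, a secreted, vitamin K-dependent inhibitor of calcification in vessel walls. At 26 weeks it did not differ detectably, with 45.7 to 85.5 and a median of 63.2 in db/db Unx, and 61.0, 55.4, 63.6, 67.7 and 74.4 in db/m. The change was -0.00081 ± 0.12, with a 95% interval of -0.25 to 0.25 (adjusted p 0.997). At 35 weeks the 5 db/db Unx libraries had 109.5, 76.0, 78.8, 115.8 and 101.9. The 6 db/m libraries lay between 36.9 and 61.9 with a median of 45.2. All db/db Unx libraries lay above all db/m libraries, and Mgp rose by 1.03 ± 0.14 (adjusted p 5.68e-07), to 96.4 ± 18.1 in db/db Unx (n = 5) against 46.9 ± 9.70 in db/m (n = 6). Without the 3 libraries apart on the second component it was 0.97 (adjusted p 0.000267). The disease comparison differed between ages by 1.03 ± 0.18 (interaction, adjusted p 0.009997), and Mgp was the only one of the 10 genes called there, where 0.548% of all genes were called. Without the 3 libraries the interaction was 0.97 and no longer called (adjusted p 0.163).

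The groups moved in opposite directions with age for Mgp. In db/db Unx it rose at 35 weeks by 0.56 ± 0.12 (adjusted p 0.00325), which was 0.50 without the 3 libraries (adjusted p 0.431). It was the only 1 of 10 genes called in that comparison, where 5.16% of all genes were called higher and 11.3% in either direction. In db/m it fell by 0.47 ± 0.14 on the log2 scale (adjusted p 0.0335), and this call was lost when any of 6 libraries was left out, replicates 3, 4 and 5 of 26 weeks or 4, 5 and 6 of 35 weeks, with adjusted p up to 0.106. Acta2 and Mgp were the 2 of 10 genes called in db/m, in opposite directions, where 2.73% of all genes were called higher, 4.68% lower and 7.40% in either direction.

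Rgs5 (ENSMUSG00000026678, chr1:169655501-169695813) encodes a regulator of G protein signalling that shortens the response to vasoconstrictors and marks pericytes and small arteries. At 26 weeks it lay between 14.1 and 22.3 with a median of 18.4 in db/db Unx. The 5 db/m libraries had 10.8, 15.8, 12.2, 10.0 and 8.74. The ranges overlapped through db/m replicate 2 at 15.8, and the other 4 db/m libraries lay below every db/db Unx library. Rgs5 averaged 18.5 ± 2.56 in db/db Unx (n = 12) and 11.5 ± 2.69 in db/m (n = 5), a rise of 0.66 ± 0.11 (adjusted p 4.38e-06). At 35 weeks the db/db Unx libraries had 17.8, 20.4, 18.2, 20.2 and 18.7, and the 6 db/m libraries lay between 12.4 and 15.4 with a median of 13.1. All db/db Unx libraries were higher, and the rise was 0.46 ± 0.12 (adjusted p 0.00260). Without the 3 libraries apart it was 0.47 (adjusted p 0.0529). Rgs5 was called at both ages, and the difference between the ages was -0.19 ± 0.16 (adjusted p 0.679).

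For most of the 10 genes, the highest db/db Unx value at 35 weeks came from 1 library. Replicate 5 of db/db Unx had the highest value of its group for 8 of the 10 genes, all but Myh11 and Rgs5. Replicate 5 was also the highest of its group in the summed endothelium (575.8) and podocyte (342.3) markers and other pericyte genes (93.3). The macrophage sum was highest in replicate 3 and the proximal tubule sum in replicate 1. In replicate 5 the summed value of 14 fibroblast and myofibroblast markers was 234.2. It was 127.7 to 172.4 in the other 4 db/db Unx libraries and 89.6 to 109.3 in db/m. In db/db Unx between ages, without replicate 5 of 35 weeks, the change of Acta2 was 0.20 (adjusted p 0.484) in place of 0.34, and that of Mgp was 0.49 (adjusted p 0.0261).

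Whether the genes rise and fall together within a group was looked at over the 12 db/db Unx libraries of 26 weeks. Of 45 pairs, none passed Benjamini-Hochberg adjustment over the pairs in a permutation test, by Pearson or by Spearman, and 4 had an unadjusted Pearson p under 0.05. The highest was Myh11 with Mcam, at r = 0.71 and rho = 0.72 (permutation p 0.00823 and 0.0104, adjusted 0.370 and 0.264), and r was 0.77 without the 2 libraries farthest from the median of Myh11. Pdgfrb with Mgp had r = 0.65, which became -0.19 without 2 libraries, and so rested on them. The median r over pairs was 0.056, with 28 positive and 17 negative. Over all 28 libraries with group means taken off, the genes most like a member in its pattern were Pkd1 for Acta2 (r = 0.69), Zfp637 for Tagln (0.67), Cul1 for Pdgfrb (0.76), Uchl1 for Mcam (0.77), Slc38a9 for Mgp (0.70) and Scaper for Rgs5 (0.71). Tpm2, a muscle tropomyosin, was also among the 3 closest to Acta2 (0.68), and Acta2 among the 3 closest to Tagln (0.65). These are the highest of 13494 other genes, share libraries, and carry no p.

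**Figure D4:**
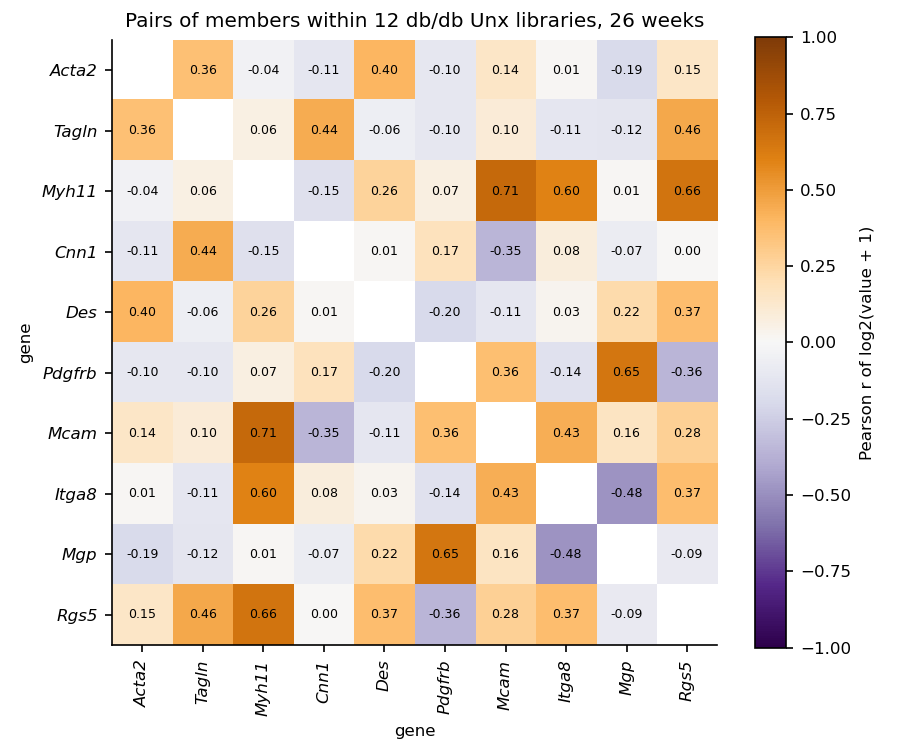
Pearson r of log2(value + 1) between each pair of the 10 genes over the 12 db/db Unx libraries of 26 weeks; orange is positive and purple negative. Myh11 with Mcam is the highest at 0.71 and Itga8 with Mgp the lowest at -0.48, and none passed adjustment over 45 pairs.

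The other genes of the same pathways were called in both directions in most lists. No juxtaglomerular gene was called higher, and no regulator of smooth muscle transcription was called lower, at either age. Counts in the lists below stand beside 34.9% of all genes called at 26 weeks and 32.3% at 35 weeks, which was 17.9% without the 3 libraries apart, with 2 db/db Unx libraries left. Nothing particular to a list is read from them. Of 18 tested contractile genes beyond the members, 2 rose and 2 fell in db/db Unx at 26 weeks, and 5 rose and 2 fell at 35 weeks (1 rose and 2 fell without the 3 libraries apart), with median changes of 0.037 at 26 weeks and 0.19 at 35 weeks. Csrp1, an actin-bundling partner, rose by 0.81 ± 0.08 (adjusted p 2.44e-10) at 26 weeks and by 0.87 at 35 weeks. Flna, which encodes filamin A, rose at 35 weeks by 0.72 ± 0.13 (adjusted p 4.13e-05; 0.45 and adjusted p 0.0519 without the 3 libraries) and changed by 0.11 at 26 weeks (adjusted p 0.498). Of 14 listed regulators of smooth muscle transcription, Myocd, Mkl1, Mkl2 and Tbx18 were not found under those symbols and were not examined. Hey2 stayed under 1 in every library and was not tested. Of the 9 tested regulators none was called at 26 weeks. Klf4, which restrains the contractile programme, rose at 35 weeks by 0.86 ± 0.22 (adjusted p 0.00193), which was 0.79 without the 3 libraries (adjusted p 0.0670).

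Of 13 other pericyte genes, 3 rose and 2 fell at 26 weeks and 4 rose and 2 fell at 35 weeks, or 1 rose and 1 fell without the 3 libraries. Kcnj8, the pore of a vascular potassium channel, fell by 1.56 ± 0.18 at 26 weeks (adjusted p 7.27e-09), while Cspg4, the NG2 proteoglycan of pericytes, rose by 0.73 ± 0.13 (adjusted p 3.65e-05). Of 13 other mesangial genes, 4 rose and 2 fell at 26 weeks and 3 rose and 3 fell at 35 weeks, or 2 rose and 2 fell without the 3. Serpine2, a protease inhibitor, rose by 1.06 ± 0.12 at 26 weeks (adjusted p 2.98e-09), and Igfbp5 fell by 0.95 ± 0.09 at 35 weeks (adjusted p 5.02e-11). Of 6 juxtaglomerular genes, none rose, 1 fell at 26 weeks and 2 fell at 35 weeks, or 1 without the 3. Ace, also an enzyme of the tubular brush border, fell by 2.36 ± 0.15 at 26 weeks (adjusted p 1.94e-13). Renin, Ren1, made by juxtaglomerular cells of the smooth muscle lineage, fell at 35 weeks by 0.62 ± 0.21 (adjusted p 0.0241), which was -0.75 but not called without the 3 libraries (adjusted p 0.0665); at 26 weeks it was -0.41 (adjusted p 0.0861).

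Of 6 tested genes of platelet-derived growth factors and their receptors, 2 rose and 1 fell at each age, and without the 3 libraries none rose and 1 fell at 35 weeks. Pdgfd, which encodes a ligand of the Pdgfrb receptor, fell at both ages, by 1.20 ± 0.14 at 26 weeks (adjusted p 1.09e-08), and Pdgfa, a ligand of the sister receptor Pdgfra, rose by 0.49 ± 0.10 (adjusted p 0.000265). Of 6 tested partners of integrin alpha 8, 2 rose and 2 fell at 26 weeks and 2 rose and 1 fell at 35 weeks. Fn1 rose by 1.05 ± 0.11 at 26 weeks (adjusted p 1.80e-09). Npnt, nephronectin, the ligand of integrin alpha 8 in the kidney, rose by 0.77 ± 0.08 at 26 weeks (adjusted p 4.00e-10), and Fras1, a basement membrane protein, fell by 1.20 ± 0.16 at 35 weeks (adjusted p 1.84e-07). Among 13 genes of Mgp's function and of calcification, 4 rose and 1 fell at 26 weeks and 3 rose and none fell at 35 weeks (4 rose without the 3). Spp1, osteopontin, rose by 2.95 ± 0.16 (adjusted p 1.06e-13) and Gas6, another vitamin K-dependent protein, by 0.67 ± 0.08 (adjusted p 9.58e-09) at 35 weeks. Of 13 vasoactive receptor and G protein signalling genes, 3 rose and 1 fell at 26 weeks and 5 rose and 1 fell at 35 weeks, or 1 rose and 1 fell without the 3. Adra1a rose by 0.96 ± 0.16 at 26 weeks (adjusted p 1.06e-05). Agtr1a, the angiotensin receptor, fell by 0.37 ± 0.08 at 26 weeks (adjusted p 0.000526), and Rock2, a kinase of calcium sensitisation, rose by 0.46 ± 0.10 at 35 weeks (adjusted p 0.000261), which was 0.30 without the 3 libraries (adjusted p 0.111). Without those 3, Igfbp5, Fras1, Spp1 and Gas6 were still called at 35 weeks, at -0.80, -0.83, 2.59 and 0.52.

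**Figure D5:**
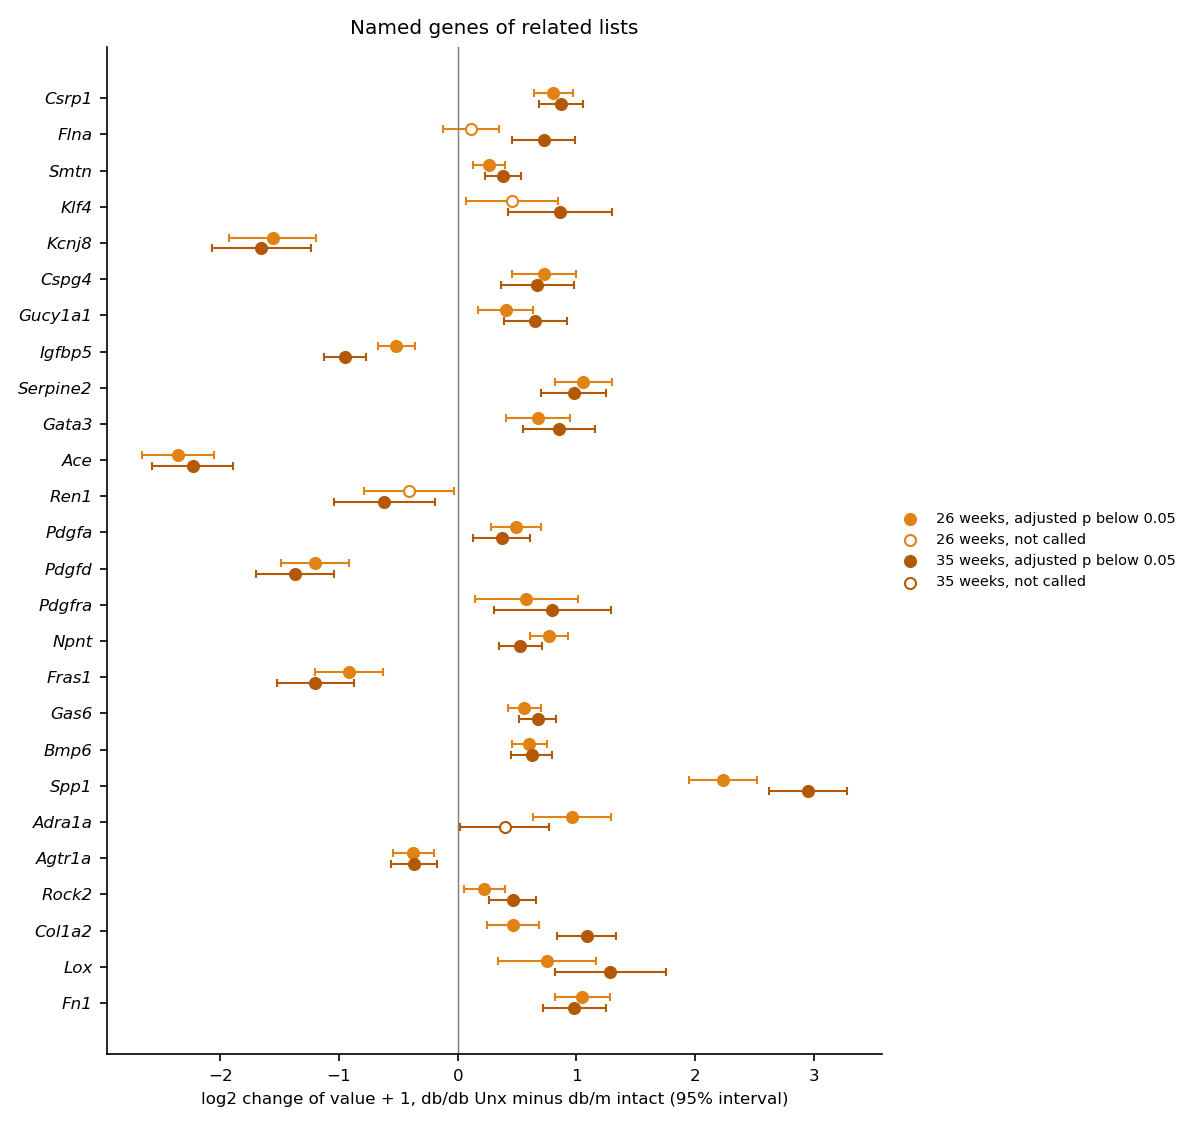
Log2 change of value + 1 in db/db Unx minus db/m, with 95% intervals from limma, for named genes of related lists at 26 weeks (upper point) and 35 weeks (lower point); filled points had an adjusted p below 0.05. Csrp1, Serpine2 and Npnt are above 0 and Kcnj8 and Pdgfd below 0 at both ages.

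Markers of other cell types are given here for the same libraries. Of 12 tested fibroblast and myofibroblast markers, 6 rose at 26 weeks and 8 at 35 weeks (4 without the 3 libraries) and none fell, and their sum ran from 127.7 to 234.2 in db/db Unx and from 89.6 to 109.3 in db/m at 35 weeks. The macrophage sum ran from 150.8 to 580.9 in db/db Unx and from 134.7 to 217.1 in db/m at 35 weeks, highest in the 3 libraries apart. Of 10 macrophage markers, 1 rose and 2 fell at 26 weeks, with a median change of -0.25, and 6 rose and none fell at 35 weeks, with a median change of 0.85. Without the 3 libraries none was called by limma at 35 weeks and 2 had an unadjusted p under 0.05, with a median change of 0.17. Of 12 endothelial markers, none rose and 3 fell at 26 weeks, and 1 rose and 2 fell at 35 weeks (none and 2 without the 3), which is no larger a share than over all genes at either age. Of 10 proximal tubule markers, 1 rose and 7 fell at 26 weeks, and none rose and 6 fell at 35 weeks, with or without the 3 libraries. They summed to between 16353 and 19530 in db/db Unx and between 24221 and 28041 in db/m at 26 weeks. At 35 weeks the sums were 14784 to 16957 in db/db Unx and 23030 to 26640 in db/m. The 6 urothelium and ureter markers summed to between 1.85 and 13.6 in db/db Unx and between 0.335 and 1.17 in db/m at 26 weeks, and to between 5.16 and 29.7 in db/db Unx and between 0.292 and 15.2 in db/m at 35 weeks. Only 3 of them passed the filter on low values: 2 rose at 26 weeks and 1 at 35 weeks. The 1 called at 35 weeks was Krt20, at 3.04 ± 0.30 (adjusted p 2.22e-10 by limma). The median change of the 3 was 0.79 at 26 weeks and 0.22 at 35 weeks. Whether the samples differed in the amount of urothelium or ureter was not tested. Only 2 of 6 skeletal muscle and 1 of 5 adipocyte markers could be tested, with 5 of 5 red cell markers. None of these was called at either age, which for the first 2 lists says little. The part of these other cell types in the members' changes was not tested.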

How the data were processed

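Total RNA of whole kidneys was sequenced in 28 libraries, prepared with TRIzol and RNeasy reagents and a Nextera XT kit per the labels' protocols. The deposited table holds a scaled signal for 14845 Ensembl genes; reads were processed by the authors with DRAGEN against GRCm38 (mm10), per the submitters' processing notes. The scaling, annotation and DRAGEN version were not stated in the labels or notes. Low values lay near whole multiples of 1 step per library in 87.3% to 89.7% of cases (within 0.1), which gave the depth estimates but was not whole enough for a count model.

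Symbols, coordinates and exon lengths came from GENCODE M21. Signal values, as deposited, were tested as log2(value + 1) with limma 3.58.1 in R 4.3.3, with 1 mean per group, trend and robust moderation, over 13495 genes whose value reached 1 in 5 or more libraries. Pair correlations used 100000 permutations. Values per library were plotted with matplotlib 3.10.9. Genes that could be named were all 10 members, up to 3 called genes of each list with the smallest adjusted p, and the 3 genes most like each member. The text gives only some of the list genes and of the genes most like a member. In the lists of related genes, those left out were Smtn, Gucy1a1, Gata3, Pdgfra and Bmp6. All were called higher in the disease comparison that gave their smallest adjusted p. Lists of other cell types are given mostly as counts and sums. The members and lists were chosen with earlier results of these data known. Promoters came from RefSeq. Alternatives were pseudocounts of 0.1 and 5, no filter, quantile and median-of-ratios scaling, no moderation trend, only the compared groups, the replicate number as a block, leaving out each library, and, added after seeing the data, leaving out 3 libraries together. The tests were checked on simulated data. Depth limits precision for faint genes such as Cnn1.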

Additional observations from a re-analysis of the deposited data

Results flagged for a closer look

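Of 30 groups of members tested for a library apart from its group, 4 were picked out, and chance picks out about 1 in 20. Acta2 was highest in db/db Unx replicate 5 of 35 weeks, at 41.0 where the next library had 27.3, and lowest in db/m replicate 2 of 35 weeks, at 15.9 where the next had 23.5. Tagln was highest in db/db Unx replicate 5 of 35 weeks, at 28.02 where the next had 16.7, and in db/m replicate 4 of 26 weeks, at 18.2 where the next had 11.0. The change of Mgp between db/db Unx and db/m differed between the ages, by 1.03 on the log2 scale. No cause of these was tested.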

How the results depend on the processing

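Over 1840 recomputed changes (50 member and comparison pairs), 1775 kept their direction and side of the threshold, 11 lost the call, 3 gained it and 51 changed sign, none of these among called results. Leaving out 1 library each, members called ranged from 3 to 4 at 26 weeks, stayed at 2 at 35 weeks, ranged from 1 to 2 in db/db Unx between ages and from 1 to 2 in db/m between ages, and stayed at 1 for the interaction. Without the 3 db/db Unx libraries apart, they were 1 at 35 weeks, 0 in db/db Unx between ages and 0 for the interaction. Correlated pairs stayed at 0 in every setting.

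Sign changes were in estimates that were not called, which in the main fit lay between -0.11 (interaction of Itga8) and 0.16 (Mcam at 26 weeks). Leaving out 1 library, they ranged from -0.16 to 0.19 for the interaction of Cnn1, from -0.041 to 0.15 for that of Mcam, from -0.22 to 0.053 for that of Tagln, from -0.26 to 0.0044 for that of Itga8, from -0.080 to 0.13 for Itga8 in db/db Unx between ages, and from -0.052 to 0.052 for Mgp at 26 weeks. The interaction of Cnn1 was -0.33 at a pseudocount of 0.1, -0.049 with quantile scaling and -0.20 without the 3 libraries. Itga8 in db/db Unx between ages was -0.060 with quantile scaling and -0.23 without the 3 libraries, the interaction of Mcam was -0.055 without them, and Mgp at 26 weeks was 0.040 with quantile scaling. The cause was not tested.

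The replicate numbers did not pair the samples: over 30 same-number pairs the correlation of deviations lay between -0.13 and 0.084, and 3 of 28 libraries correlated best with their own number. With the replicate number as a block, 2 members were called at 26 weeks, Myh11 being lost at 0.53 (adjusted p 0.153), and Mcam at 26 weeks was -0.035, the interactions of Tagln and Cnn1 were 0.029 and -0.12, and Itga8 in db/db Unx between ages was -0.038.

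Over all genes, db/db Unx between ages gave 1526 calls, 483 with the block, 630 without replicate 5 of 35 weeks and 8 without the 3 libraries. The interaction gave 74, 29 with the block, 41 without trend, 7 without replicate 5 and 249 without replicate 2 of db/db Unx at 35 weeks, and 0 without the 3 libraries. The 35-week comparison gave 4357, and 2408 without the 3, and db/m between ages gave 999, and 578 without replicate 5 of 26 weeks.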
